A study of Mus musculus with 4 samples.

Results

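Genes of the cyclic AMP (cAMP) pathway were followed across freshly isolated, injury-activated and cultured mouse muscle stem cells. They are 10 genes taken by symbol from the 25804 symbols in the files. The rapid targets are Nr4a1 (ENSMUSG00000023034), Nr4a2 (ENSMUSG00000026826), Nr4a3 (ENSMUSG00000028341), Crem (ENSMUSG00000063889), Sik1 (ENSMUSG00000024042) and Rgs2 (ENSMUSG00000026360). The phosphodiesterases are Pde4b (ENSMUSG00000028525), Pde4d (ENSMUSG00000021699), Pde10a (ENSMUSG00000023868) and Pde1a (ENSMUSG00000059173). All 10 were found in each of the 4 libraries, and all 10 reached at least 10 CPM (a gene's counted molecules, or UMIs, after every library was brought to an equal sum) in at least 1 of them. cAMP itself was not measured.

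Adenylyl cyclases make cAMP when a receptor activates the stimulatory G protein or when Forskolin activates the cyclase directly. cAMP releases the active subunits of protein kinase A (PKA), which phosphorylates CREB, and CREB bound to its DNA element then switches on genes such as the NR4A nuclear receptors, Crem, Sik1 and Rgs2 quickly and for a short time. Phosphodiesterases break cAMP down again, and several of them are themselves under cAMP control, so they act as brakes on the same signal. In muscle, quiescent satellite cells carry the calcitonin receptor, which signals through cAMP and PKA.

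Each group was 1 library, so no value has a replicate. All cells carried Pax7-nGFP, a transgene in which regulatory DNA of Pax7, the transcription factor that marks satellite cells, drives nuclear GFP. Freshly isolated satellite cells (fiSC) were GFP+ cells sorted from limb muscles of 3 male mice aged 13 weeks, pooled. Activated satellite cells (ASC) were GFP+ cells sorted from 17 tibialis anterior muscles of male and female mice aged 18 to 24 weeks, pooled 3 days after cardiotoxin was injected. Myoblasts were taken at passage 2 in a serum-rich medium with basic FGF, from a male mouse aged 16 weeks. Myogenic progenitor cells (MPC) had 2 passages as myoblasts and then 5 passages with Forskolin (5 µM), Repsox (5 µM, which blocks TGF-beta receptor signalling) and CHIR9901 (3 µM, of the CHIR group of GSK3 inhibitors) in a medium that also held basic FGF. Their parental cells came from a male mouse aged 16 weeks. The cultures were not sorted, and the 3 agents were given together, so the part of Forskolin cannot be told apart from the others, from the change of base medium or from the added passages. Animals, sex, handling, library and group cannot be told apart either. Sorted cells were released with collagenase and cultured cells with trypsin.

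The retained cells numbered 2188 (fiSC), 6446 (ASC), 2353 (myoblast) and 9089 (MPC), with medians of 8758, 19824.5, 22869 and 13231 UMIs per cell, and any 2 libraries shared 2 to 18 cell barcodes. Of 14 myogenic progenitor markers, 14, 9, 11 and 12 reached 20 CPM in that order. All 14 macrophage markers did so in ASC, where they summed to 10357 CPM, against 6.52 to 31.7 CPM in the other libraries. Clusters named macrophage-like held 46.6% of the ASC cells although that library came from a GFP sort, and progenitor-like clusters held 97.3, 31.9, 71.8 and 55.6% of cells in the order given above. Values are therefore given over all retained cells and over progenitor-like cells. MPC clusters 5 and 6 stayed unnamed and are given apart. Pax7 was at 1244 CPM in cluster 5 and at 191 CPM in cluster 6. Intervals are exact Poisson for levels, exact conditional binomial for ratios and exact binomial for shares, all at 95%, and they cover counting error only. The size rule for a call was a ratio of 2-fold or more after 5 CPM was added to both levels, together with 10 CPM or more in the higher of them. No test was possible with 1 library per group.

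The promoters of the rapid targets show the letters CREB is known to read. The full element is TGACGTCA and its half-site is TGACG, which reads CGTCA on the other strand. In the 250 bases before the start sites of RefSeq (GRCm38.p6), 1 or more half-sites on either strand, those inside a full element included, were found in 17.8% of 32851 promoters, at least 2 in 3.90% and at least 3 in 0.688%. The full element was in 1.55%. The table held 8 of the 10 genes, 4 rapid targets and 4 phosphodiesterases, and not Crem or Sik1. Nr4a1, Nr4a2 and Nr4a3 each had 4 half-sites and Rgs2 had 2. None of the 4 had a full element in this window. The sequences are shown because they hold these half-sites. They run 5′ to 3′ on the gene's strand, with half-sites in capitals, and bases inside annotated exons are left out, which for Nr4a3 removes the last 152 bases and the fourth half-site.
Nr4a1: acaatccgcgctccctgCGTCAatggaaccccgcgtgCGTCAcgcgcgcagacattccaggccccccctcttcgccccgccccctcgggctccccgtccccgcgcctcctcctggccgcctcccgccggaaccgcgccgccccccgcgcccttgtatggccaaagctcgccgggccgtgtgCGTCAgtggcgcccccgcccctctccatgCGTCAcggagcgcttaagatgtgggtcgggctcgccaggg
Nr4a2: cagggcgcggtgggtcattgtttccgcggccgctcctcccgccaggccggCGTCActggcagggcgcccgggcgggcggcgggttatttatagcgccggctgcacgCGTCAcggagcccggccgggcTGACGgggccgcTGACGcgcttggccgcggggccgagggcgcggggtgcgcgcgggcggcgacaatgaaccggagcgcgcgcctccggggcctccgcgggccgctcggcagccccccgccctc
Nr4a3: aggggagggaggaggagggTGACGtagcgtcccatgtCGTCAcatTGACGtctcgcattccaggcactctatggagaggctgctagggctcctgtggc
Rgs2: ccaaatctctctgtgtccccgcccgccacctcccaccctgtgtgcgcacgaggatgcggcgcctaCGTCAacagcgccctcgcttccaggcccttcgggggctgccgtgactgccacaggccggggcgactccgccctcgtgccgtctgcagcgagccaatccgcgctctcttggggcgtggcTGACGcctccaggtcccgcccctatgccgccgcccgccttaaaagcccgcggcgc
They lie at chr15:101266596-101266845 (plus strand), chr2:57124004-57124253 (minus strand), chr4:48045055-48045152 (plus strand) and chr1:144004162-144004399 (minus strand). The 4 phosphodiesterases had 11 windows, since most have several start sites. A half-site was in 1 of 4 windows of Pde4b and in 1 of 4 windows of Pde1a, and none was in the single window of Pde4d or the 2 of Pde10a. A match describes letters only, and a window without one says nothing of CREB.

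The rapid targets differed among themselves in the order of the libraries. Nr4a1, an orphan nuclear receptor, stood at 195 CPM in fiSC, 19.0 in ASC, 8.26 in myoblasts and 12.3 in MPC. Its relative Nr4a3 had the same top library, with 80.6 CPM in fiSC, 13.9 in ASC, 0.749 in myoblasts and 2.28 in MPC. In both cases fiSC stood far above the rest and the cultures were lowest. Nr4a2, the other member of that receptor family, ran in another order, with 15.1 CPM in fiSC, 36.5 in ASC, 65.0 in myoblasts and 6.02 in MPC. It was the rapid target with its top level in the myoblasts and its bottom level in MPC.

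Crem, which makes activators and the short repressor ICER that ends CREB responses, reached 110 CPM in fiSC, 35.5 in ASC, 20.1 in myoblasts and 20.0 in MPC. Sik1, a kinase that keeps the CREB coactivators out of the nucleus, reached 282 CPM in fiSC, 32.0 in ASC, 54.3 in myoblasts and 46.2 in MPC. For both genes the cultures lay close together and fiSC stood apart. Rgs2, which shortens G protein signals, reached 39.4 CPM in fiSC, 48.8 in ASC, 4.33 in myoblasts and 19.2 in MPC. Over all retained cells the intervals of neighbouring libraries overlapped for Crem in myoblasts (18.9 to 21.3 CPM) and MPC (19.3 to 20.8 CPM), and for no other gene of the 10. The plot of levels by library shows this order beside that of the progenitor-like cells.

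**Figure D1:**
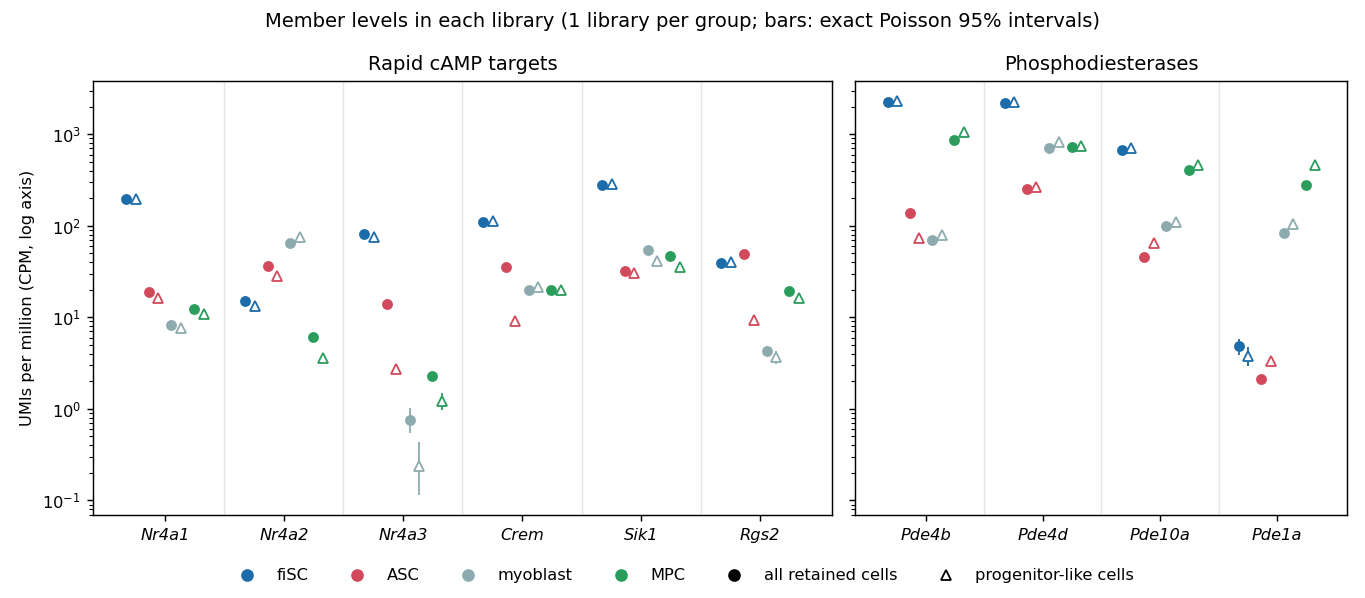
Levels of the 10 genes in CPM (log axis) in the 4 libraries, over all retained cells (filled circles) and progenitor-like cells (open triangles), with exact Poisson intervals where wider than the symbol. Nr4a1, Nr4a3, Crem and Sik1 are highest in fiSC, Nr4a2 in myoblasts, and Pde1a in MPC at 283 CPM over all cells.

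In the MPC, kept with Forskolin, against the myoblasts, 5 of the 6 rapid targets were measured at 10 CPM or more in the higher library. Rgs2 was higher by 4.44-fold (interval 3.89 to 5.10) and Nr4a2 was lower by 10.8-fold (10.0 to 11.7). The ratios of Nr4a1 (1.49-fold, 1.34 to 1.66), Crem (0.996-fold, 0.928 to 1.07) and Sik1 (0.852-fold, 0.815 to 0.890) did not meet the size rule. Nr4a3 was under 10 CPM in both. Of 9469 genes measured in this comparison, 6.84% were higher by the rule and 6.45% lower, and the median log2 ratio was 0.06. The median of the 5 rapid targets was 0.00. The sum of 18 immediate early and dissociation genes was 2436 CPM in MPC and 2482 CPM in myoblasts. The chaperone gene Hspa8 made up much of both sums (1213 and 1798 CPM), and of the 16 genes of that list measured here 6 were higher in MPC and none was lower, with a median log2 ratio of 0.52.

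Within progenitor-like cells the gap in Nr4a2 was wider, at 3.62 CPM in MPC and 75.6 in myoblasts, or 20.9-fold (18.4 to 23.8). Rgs2 was at 16.4 and 3.67 CPM there, a ratio of 4.47-fold (3.78 to 5.32). The call on Rgs2 was lost when cells needed 2000 UMIs, 1000 genes and at most 5% mitochondrial UMIs (log2 ratio 0.94, against 1.38), a filter that left 500 myoblasts. In the progenitor-like clusters of the myoblasts Nr4a2 was at 98.3 CPM in cluster 4, where the proliferation marker Mki67 was at 18.3 CPM, and at 71.9 and 44.8 CPM in clusters 1 and 2, where Mki67 was at 275 and 384 CPM. In the muscle differentiation-like cluster 3 it was at 1.41 CPM.

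Sik1 was higher in differentiating cells of both cultures. It was at 143 CPM in the muscle differentiation-like cells of the myoblast culture, against 41.4 CPM in the progenitor-like cells. In MPC the same classes had 86.8 and 35.9 CPM. In the fibroblast-like cells of the MPC culture, which are 4.28% of its cells, Nr4a1 was at 45.8 CPM and Nr4a2 at 40.3, against 10.9 and 3.62 CPM in its progenitor-like cells.

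**Figure D2:**
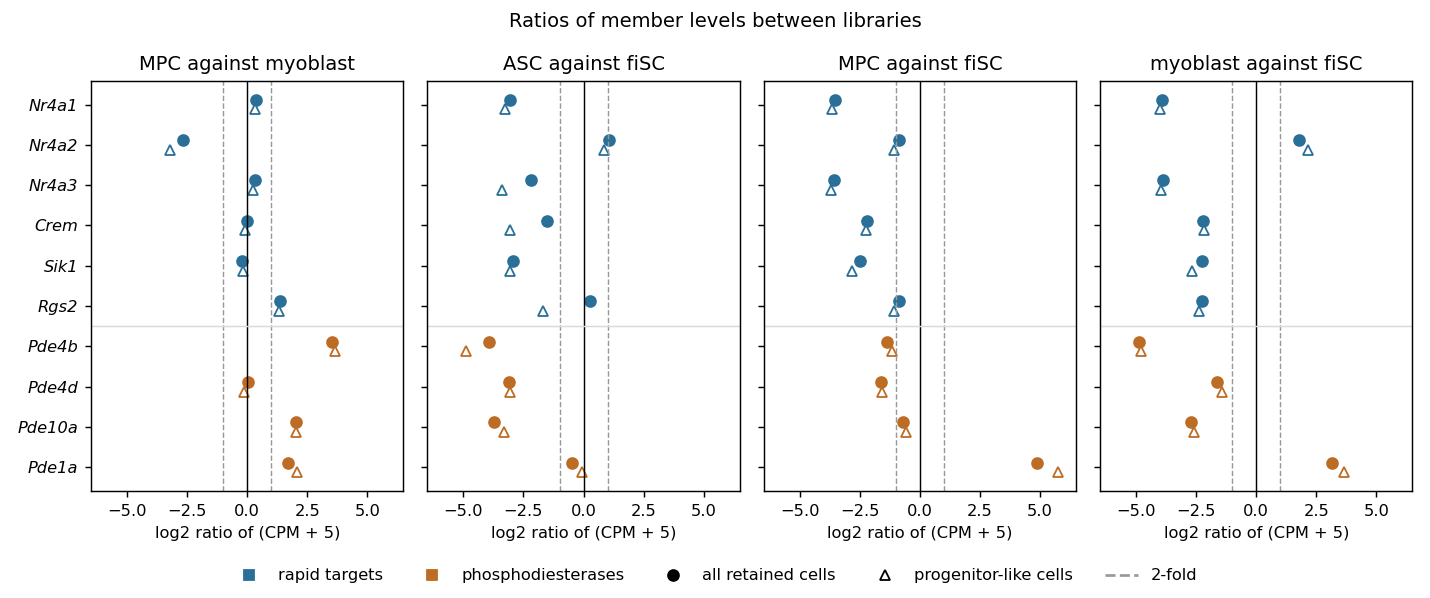
Log2 ratios of CPM plus 5 for the 10 genes in 4 comparisons, over all retained cells (filled circles) and progenitor-like cells (open triangles), with dashed lines at 2-fold. Against myoblasts the MPC differ most in Pde4b (3.54) and Nr4a2 (-2.67), and the last 3 panels share the fiSC library.

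The comparisons against fiSC share that library, so a gene high in fiSC is low in each of them. Of the 6 rapid targets, 4 were lower in ASC (Nr4a1, Nr4a3, Crem and Sik1) and 1 was higher (Nr4a2), where 21.1% of all genes were lower and 24.6% higher. Nr4a1 was 10.3-fold lower (9.79 to 10.7), Nr4a3 was 5.79-fold lower (5.43 to 6.16), Crem was 3.10-fold lower (2.96 to 3.26) and Sik1 was 8.80-fold lower (8.48 to 9.13). With equal weight for each cell Crem did not meet the rule (log2 ratio -0.94). With edgeR TMM scaling the median log2 ratio of all genes moved from 0.08 to 0.33, and the share of higher genes among those called moved from 53.8% to 64.1%. In MPC, 4 rapid targets were lower than in fiSC (Nr4a1, Nr4a3, Crem and Sik1), where 15.8% of all genes were lower. In progenitor-like cells all 6 were lower in MPC, with Nr4a2 (3.68-fold, 3.09 to 4.39) and Rgs2 (2.48-fold, 2.27 to 2.72) added, where 16.0% of all genes were lower. The median log2 ratio of the 6 was there -2.54, against 0.38 over all genes. In myoblasts, 5 were lower (Nr4a1, Nr4a3, Crem, Sik1 and Rgs2), where 17.8% were. Nr4a2 was higher in myoblasts than in fiSC (4.30-fold, 3.83 to 4.86), where 27.7% of all genes were higher.

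Nr4a2 in ASC met the rule narrowly, at a log2 ratio of 1.05, and did not meet it in progenitor-like cells (0.85). The reverse held for Rgs2, which was at 9.40 CPM in the progenitor-like cells of ASC and 40.7 CPM in those of fiSC, a 4.33-fold lower level (3.93 to 4.77). In progenitor-like cells 5 of the 6 rapid targets were thus lower in ASC than in fiSC, and none was higher, where 23.9% of all genes were lower. There Nr4a3 was 27.9-fold lower (24.4 to 31.9) and Crem 12.3-fold lower (11.4 to 13.4), well beyond the ratios over all cells.

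The macrophage-like cells of ASC differed from its progenitor-like cells in most rapid targets. They had more Crem (102 CPM against 9.11 in the progenitor-like cells of the same library), more Rgs2 (151 against 9.40), more Nr4a3 (42.1 against 2.72) and more Nr4a2 (57.9 against 28.1). Nr4a1 (29.1 against 16.2 CPM) and Sik1 (36.3 against 30.2) differed less. Among the phosphodiesterases, Pde4b was higher in the macrophage-like cells (316 against 73.7 CPM), Pde4d was lower (196 against 267) and Pde10a far lower (3.29 against 65.2). Pax7, which macrophages should lack, was at 3.55 CPM there and 120 CPM in the progenitor-like cells. In cells thinned to 2000 UMIs, 0.736% of macrophage-like cells had a UMI of Pax7 and 0.669% had 1 of Pde10a, against 23.7% and 10.9% of progenitor-like cells. Median depths before thinning were 15960.5 and 46947 UMIs.

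**Figure D3:**
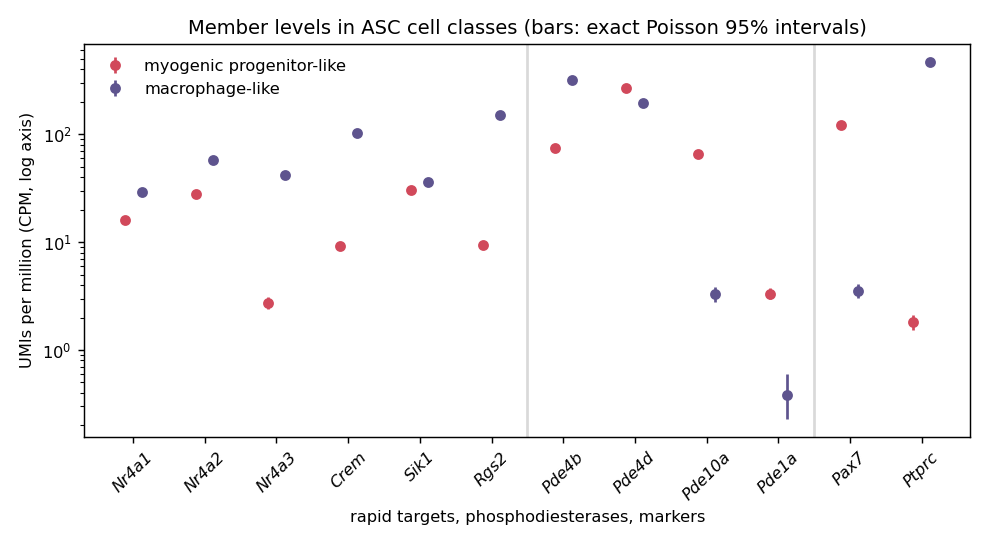
Levels in CPM (log axis) in the progenitor-like and macrophage-like cells of the ASC library, with exact Poisson intervals where wider than the symbol. Crem, Rgs2, Nr4a3 and Pde4b are higher in macrophage-like cells and Pde10a and Pax7 in progenitor-like cells, and Ptprc is the leukocyte gene that encodes CD45.

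The fiSC cells were themselves divided in Nr4a1. It was at 504 CPM in cluster 1, led by Hes1, Wdr95 and G0s2, with Calcr last of its 10 top genes. Cluster 2, led by Dnajb1 and other chaperone genes, had 370 CPM. In clusters 3 and 4 it was at 43.9 and 33.3 CPM. Nr4a3 followed it with 124, 105, 68.0 and 33.9 CPM. Sik1 (250, 243, 350 and 292 CPM) and Crem (78.3, 132, 121 and 98.9 CPM) did not. The summed level of 18 immediate early and dissociation genes, which enzymatic release of cells is known to induce, was 65470 and 56378 CPM in clusters 1 and 2 and 12984 and 10492 in clusters 3 and 4. Clusters 1 and 2 are called high and clusters 3 and 4 low in immediate early genes by this sum. Over whole libraries it was 31312 CPM in fiSC, 4779 in ASC, 2482 in myoblasts and 2436 in MPC. Low is therefore relative to clusters 1 and 2, since clusters 3 and 4 were above ASC, myoblasts and MPC in this sum. In progenitor-like ASC the sum was 4376 CPM, of which Hspa8 made up 2913 CPM.

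With fiSC limited to clusters 3 and 4 (1250 cells), a restriction chosen after these values were seen, Nr4a1 in fiSC was at 38.3 CPM, Nr4a3 at 50.1, Crem at 109, Sik1 at 319 and Rgs2 at 31.0. Against these cells the progenitor-like ASC were still lower in 5 rapid targets, with 24.5% of all genes lower, and higher in none, with 25.6% higher. The ratio of Nr4a1 became 2.37-fold in place of 12.1-fold, while that of Sik1 was 10.6-fold in place of 9.52-fold, and Crem was at 9.11 CPM in ASC against 109 CPM in these fiSC cells. In fiSC, Crem was at 109 CPM without the cells rich in immediate early genes and 112 CPM with them, and Sik1 at 319 and 288 CPM. Clusters 3 and 4 were still above the other libraries in the sum of immediate early and dissociation genes. The part of those genes in what remains was not tested.

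Nr4a1 also went with Pax7 over fiSC cells. Of the progenitor-like cells thinned to 2000 UMIs (43 cells under that depth left out), a UMI of Nr4a1 was found in 11.8% (interval 9.57 to 14.4%) of those with 0 UMIs of Pax7, 18.1% (14.9 to 21.7%) with 1, 20.7% (16.5 to 25.5%) with 2 and 31.8% (27.8 to 36.1%) with 3 or more. Without thinning of Nr4a1 the shares in the same cells were 27.7, 33.5, 46.5 and 58.4%. Within clusters 3 and 4 the thinned shares were 7.67, 6.67, 3.66 and 6.92%, and within clusters 1 and 2 they were 33.1, 38.1, 37.3 and 40.3%. Inside each pair of clusters the intervals of the thinned shares overlapped, whereas over all progenitor-like cells those of 0 and of 3 or more Pax7 UMIs did not. Unthinned shares in clusters 3 and 4 were 21.0, 17.9, 20.1 and 34.6%. In the progenitor-like cells of MPC the shares were 2.50, 2.50, 1.81 and 2.38%.

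**Figure D4:**
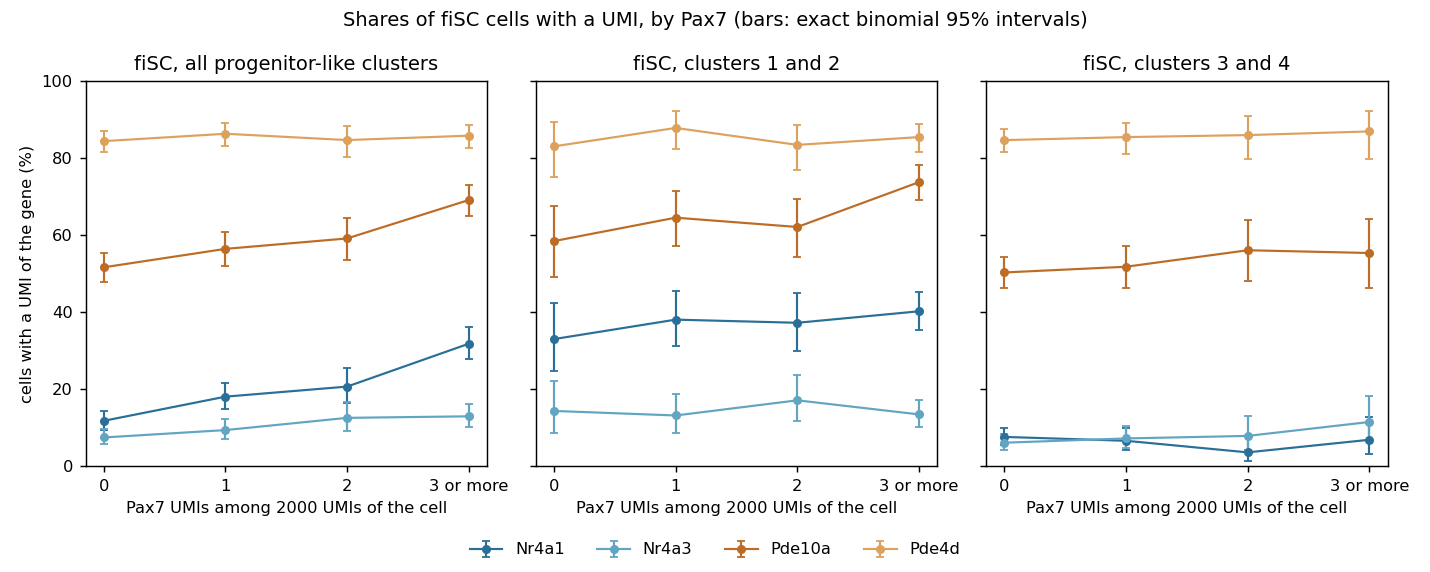
Share of fiSC cells, thinned to 2000 UMIs, with a UMI of Nr4a1, Nr4a3, Pde10a or Pde4d by the number of Pax7 UMIs, in all progenitor-like clusters and in the clusters high (1 and 2) and low (3 and 4) in immediate early genes, with exact binomial intervals. Nr4a1 rises from 11.8% to 31.8% over all cells and has overlapping intervals inside each pair of clusters.

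The phosphodiesterases had 3 different orders over the libraries. Pde4b, an enzyme specific for cAMP, stood at 2231 CPM in fiSC, 140 in ASC, 70.0 in myoblasts and 866 in MPC. Pde10a, which breaks down cAMP and cGMP, was at 674, 45.8, 98.3 and 412 CPM in that order. Both genes thus had fiSC on top and MPC next, and they differed in the order of ASC and myoblasts. Pde4d, also specific for cAMP, reached 2198 CPM in fiSC, 250 in ASC, 705 in myoblasts and 723 in MPC, so that the cultures were nearly level. Its order was that of Pde10a. In progenitor-like cells Pde4b was at 73.7 CPM in ASC and 78.4 in myoblasts, and Pde4d at 819 CPM in myoblasts and 739 in MPC, so these neighbours changed places. Pde1a, which calcium and calmodulin activate, had 4.80 CPM in fiSC, 2.12 in ASC, 83.2 in myoblasts and 283 in MPC. It was the phosphodiesterase of the 4 that was low in both sorted libraries and high in both cultures.

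Against myoblasts, 3 of the 4 phosphodiesterases were higher in MPC and none was lower, with a median log2 ratio of 1.86 over the 4. Pde4b was higher by 12.4-fold (11.97 to 12.8), Pde10a by 4.19-fold (4.07 to 4.31) and Pde1a by 3.40-fold (3.29 to 3.50). Pde4d differed by 1.03-fold (1.01 to 1.04) and did not meet the rule. In progenitor-like cells the same 3 met it, with 13.4-fold for Pde4b (1047 and 78.4 CPM), 4.19-fold for Pde10a (466 and 111 CPM) and 4.39-fold for Pde1a (462 and 105 CPM). There 7.73% of all genes were higher. The background is wider for long genes. The 4 phosphodiesterase genes span 295 to 1504 kb and the rapid targets 4.82 to 71.7 kb (GENCODE M21), and among 651 genes over 200 kb 21.4% were higher and 13.5% lower in MPC, with a median log2 ratio of 0.27 against 0.05 for shorter genes. Whether intronic reads were counted is not given in the sources used here, and their part in the result was not tested.

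Against fiSC, 3 phosphodiesterases were lower in ASC, namely Pde4b by 16.0-fold (15.7 to 16.2), Pde4d by 8.78-fold (8.67 to 8.90) and Pde10a by 14.7-fold (14.3 to 15.1). Pde1a was under 10 CPM in both. In progenitor-like cells the ratio of Pde4b was 31.5-fold (30.7 to 32.3). Long genes as a group were also lower in ASC, with a median log2 ratio of -0.92 over 593 genes and 47.7% of them lower, against 0.13 and 19.3% for shorter genes. The log2 ratios of the 3 genes, -3.95, -3.11 and -3.74, lay below that median.

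In progenitor-like cells MPC were lower than fiSC in 2 of the 4 phosphodiesterases (Pde4b and Pde4d), with 16.0% of all genes lower, and higher in 1 (Pde1a), with 29.4% higher. Progenitor-like myoblasts were lower than fiSC in 3 phosphodiesterases, with 17.4% of all genes lower, and higher in 1, with 28.9% higher. Among genes over 200 kb, 26.2% were lower and 30.4% higher in progenitor-like MPC than in fiSC. In progenitor-like myoblasts 30.7% of such genes were lower and 27.5% higher. Over all retained cells of MPC, Pde4b was 2.58-fold lower (2.55 to 2.61) and Pde4d 3.04-fold lower (3.01 to 3.08) than in fiSC, and Pde10a (1.64-fold lower) did not meet the rule. Pde1a was 58.8-fold higher (48.2 to 72.6), where 27.9% of all genes were higher, and 124-fold higher (98.0 to 158) in progenitor-like cells. Against the fiSC cells of clusters 3 and 4 the progenitor-like MPC were 1.83-fold lower in Pde4b, under the rule, and 3.00-fold lower in Pde4d. They were there lower in 4 rapid targets (Nr4a1, Nr4a3, Crem and Sik1) and 1 phosphodiesterase (Pde4d), with 17.0% of all genes lower, and higher in Pde1a, with 32.1% higher. The progenitor-like myoblasts were lower than those fiSC cells in 5 rapid targets and 3 phosphodiesterases, with 18.1% of all genes lower, and higher in Nr4a2 and Pde1a, with 30.8% higher. Over all retained cells of myoblasts Pde4b was 31.9-fold lower than in fiSC (30.8 to 32.9), Pde4d 3.12-fold lower and Pde10a 6.85-fold lower, and Pde1a was 17.3-fold higher (14.2 to 21.4).

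Per cell, after thinning to 2000 UMIs, a UMI of Pde4b was found in 89.3% of fiSC, 27.6% of ASC, 11.3% of myoblasts and 67.9% of MPC. Unthinned shares were 96.9, 72.5, 53.7 and 91.3%. For Pde1a the thinned shares were 0.608, 0.413, 12.1 and 30.7%, and the unthinned ones 1.74, 2.51, 45.5 and 60.2%. Thinning left out 50, 638, 76 and 206 cells in that order. The thinned shares of Pde10a were 57.4, 5.34, 12.9 and 39.6% and those of Pde4d 84.2, 30.9, 60.4 and 64.7%. For each of the 4 phosphodiesterases the libraries had the same order in thinned shares as in CPM.

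Inside the MPC culture the phosphodiesterases parted by cluster. Pde1a was at 422 CPM in cluster 1 (cycling, Mki67 at 539 CPM), 741 in cluster 2 (led by Gal and Spp1), 409 in cluster 4 (Mki67 at 79.0 CPM), 164 in cluster 5 and 42.3 in cluster 6. In the muscle differentiation-like cells it was at 16.1 CPM. Clusters 1 and 4 had the highest and the lowest Mki67 of the 3 progenitor-like clusters and were near each other in Pde1a, Pde4b (1080 and 1117 CPM) and Pde10a (478 and 428 CPM). Cluster 5 is an unnamed cluster with Rgs5 among its leading genes and Pax7 at 1244 CPM. It had the top levels in MPC of Pde10a (1057 CPM), Pde4b (1270 CPM) and Rgs2 (50.2 CPM). Cluster 6, also unnamed, had Pax7 at 191 CPM, the differentiation marker Myog at 980 CPM and a differentiation marker sum of 5818 CPM. It kept Pde4b (809 CPM) and Pde4d (943 CPM) and had little Pde10a (147 CPM). In the muscle differentiation-like cells Pde4b was at 263 CPM, Pde4d at 237 and Pde10a at 174.

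In the other libraries some of the phosphodiesterases went with Pax7 in places and others did not. Among the ASC progenitor-like clusters, cluster 8 (232 cells) had Pax7 at 403 CPM, Pde4d at 867 and Pde1a at 48.0, whereas clusters 2 and 3 had Pax7 at 120 and 72.8 CPM, Pde4d at 283 and 125 and Pde1a at 1.13 and 0.469. In fiSC, Pde10a was at 1194 CPM in cluster 1, 792 in cluster 2, 754 in cluster 3 and 356 in cluster 4, and Pax7 at 1945, 1040, 591 and 392 CPM had the same order. Pearson's correlation with Pax7 on a log scale was taken over the single progenitor-like cells of fiSC, pooled over clusters that differ in Pax7. It was 0.21 for Pde10a and 0.14 for Pde4b, and it was not computed inside clusters. It was 0.017 for Pde4d and 0.014 for Pde1a. In the progenitor-like cells of ASC, myoblasts and MPC, in that order, it was 0.42, 0.098 and 0.18 for Pde4d. For Pde1a it was 0.20, 0.18 and 0.13 there, for Pde10a 0.21, 0.14 and 0.14, and for Pde4b 0.29, 0.15 and 0.078. In the myoblast culture Pde1a was at 83.5 to 117 CPM in the progenitor-like clusters and at 0.606 CPM in the muscle differentiation-like cluster 3.

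**Figure D5:**
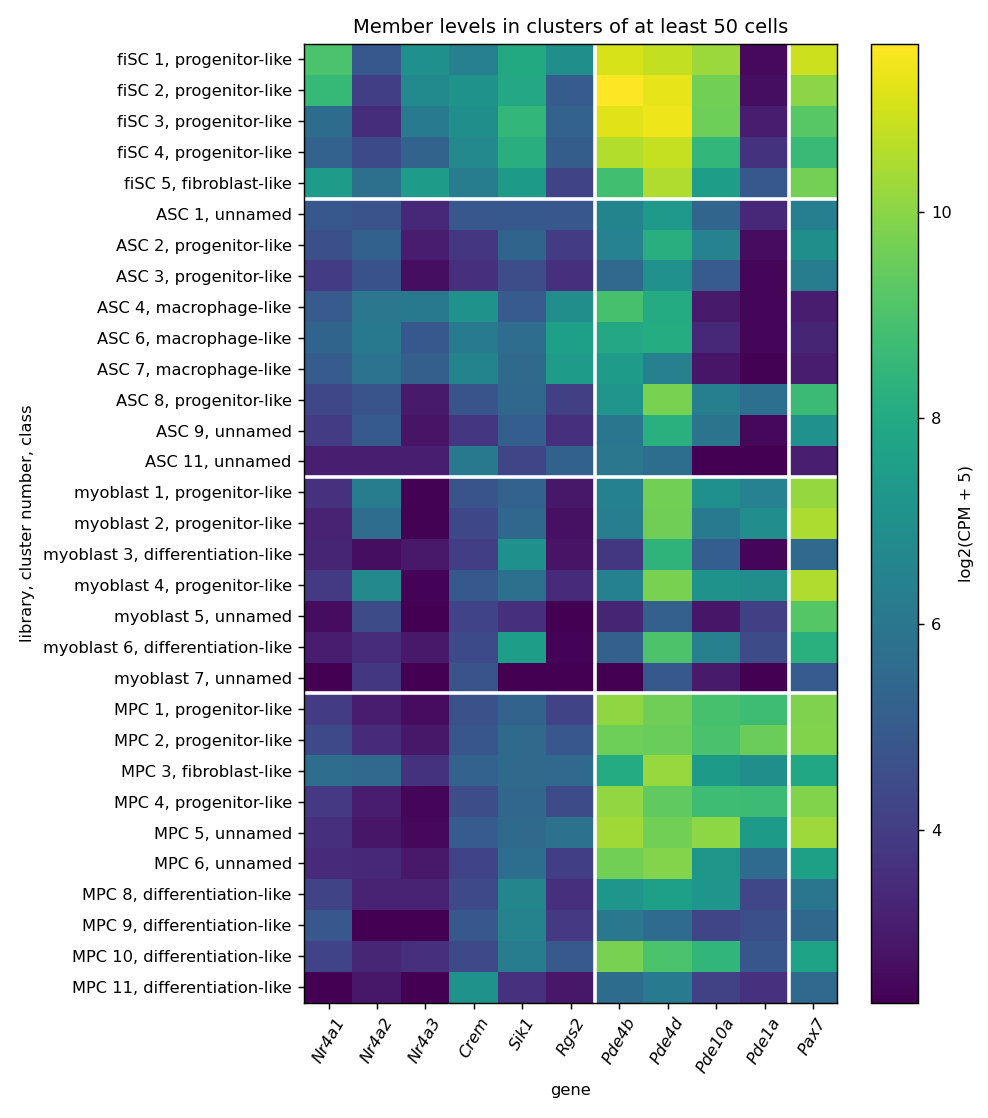
Levels of the 10 genes and of Pax7, as log2 of CPM plus 5, in the clusters of at least 50 cells of each library. Nr4a1 is bright in fiSC clusters 1 and 2, Pde10a in fiSC cluster 1 and MPC cluster 5, and Pde1a in MPC clusters 1, 2 and 4.

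Other genes of the pathway were counted by list in MPC against myoblasts. Of 10 other phosphodiesterases measured, 5 were higher and 1 was lower, with a median log2 ratio of 1.06 against 0.06 for all genes. Pde3a, which cGMP inhibits, was at 105 CPM in MPC and 1.50 in myoblasts. Pde7b, specific for cAMP, was at 265 and 79.6 CPM, and Pde3b, which insulin signalling activates, at 83.2 and 27.4 CPM. Pde1c went the other way, with 27.9 CPM in MPC and 114 in myoblasts. Pde8a and Pde11a were the other 2 that were higher. Over all genes 6.84% were higher and 6.45% lower. In progenitor-like cells 3 of 9 were higher (Pde3a, Pde3b and Pde8a) and Pde1c was lower, where 7.73% of all genes were higher and 7.67% lower. Pde7b, at 166 CPM in MPC and 90.9 in myoblasts there, and Pde11a did not meet the rule.

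Genes upstream and downstream of the enzymes were counted in the same way. Of 5 adenylyl cyclases 1 was higher, Adcy2, at 219 CPM in MPC and 30.8 in myoblasts, and Adcy7 was lower. Of 7 PKA subunits and inhibitors 1 was lower, the PKA inhibitor gene Pkia, at 79.7 and 188 CPM over all cells and at 12.3 and 177 CPM in progenitor-like cells. None of 8 CREB factors and coactivators, 6 G protein alpha subunits and 4 Epac and Popeye genes met the rule, and of 3 receptors coupled to the stimulatory G protein 2 were lower, Adora2b and Ptger4. Of 15 other CREB targets 3 were higher (Fos, Fosb and Gem) and 4 lower (Ppargc1a, Bdnf, Inhba and Dusp4), with a median of -0.08. Fos, the highest ratio among them, was at 86.1 CPM in MPC and 8.51 in myoblasts. Of 16 immediate early and dissociation genes measured 6 were higher, among them Egr1 (382 and 99.0 CPM) and Ier3 (63.6 and 17.1 CPM). Fos and Fosb are in both of these lists and count as higher in each. Of 7 relatives of SIK and RGS genes 1 was higher, Rgs16. In progenitor-like cells Rgs16 and Inhba did not meet the rule. Junb and Calcrl were called higher and Atf3, Ptgs2 and Rgs5 lower only there. Of 14 other CREB targets 4 were then higher and 5 lower, with a median of -0.39, where 7.73% of all genes were higher and 7.67% lower. List genes named without a level were chosen after their values were seen.

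In ASC against fiSC the lists differed in direction, where 21.1% of all genes were lower and 24.6% higher. Of 15 other CREB targets 12 were lower and 3 higher (Areg, Ptgs2 and Dusp4), with a median log2 ratio of -2.23 against 0.08 for all genes, and of 18 immediate early and dissociation genes 15 were lower. Fos, Fosb, Junb, Dusp1, Atf3 and Btg2 are in both lists and count as lower in each, so these are not separate results. In progenitor-like cells 12 of 14 CREB targets were lower and 2 higher (Areg and Dusp4), with a median of -3.63, where 23.9% of all genes were lower. Ptgs2, at 279 CPM over all ASC cells, was at 3.96 CPM in the progenitor-like cells. Of 8 other phosphodiesterases 4 were lower (Pde1c, Pde3a, Pde5a and Pde7b) and none was higher. Of 9 CREB factors and coactivators 4 were lower (Creb5, Crtc2, Crtc3 and Crebbp), and of 8 PKA subunits and inhibitors 2 were higher (Prkar2b and Pkib). Pkib was at 15.8 CPM over all ASC cells and 0.392 CPM in the progenitor-like cells, where it was not called. Pde3a (288 CPM in fiSC and 5.18 in ASC), Pde1c (350 and 17.1 CPM) and Adcy2 (309 and 9.57 CPM) were each high in fiSC.

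The genes most like each member were sought over 31 clusters of at least 50 cells from the 4 libraries, by Pearson's correlation of log2 of CPM plus 5 among 7513 genes, as a description, since clusters of 1 library share its depth and handling. Nr4a1 was most like Per1 (0.92), Rassf1 (0.90) and Fos (0.90). Per1 and Fos are CREB targets in the lists, and Fos is also in the list of immediate early and dissociation genes. Nr4a3 was most like Cish (0.93), Birc3 (0.91) and Csrnp1 (0.91), and Nr4a2 most like Snx9 (0.88), Alcam (0.84) and Fam102b (0.81). For Crem they were Lmo2 (0.84), Casp4 (0.82) and Chd9 (0.81), and for Sik1 Mpp5 (0.94), Atp13a3 (0.93) and Spty2d1 (0.92). Pde4b was most like Serinc5 (0.92), Mdfic (0.90) and Cyria (0.89), and Pde4d most like Ttc19 (0.95), Nf1 (0.95) and Ric8b (0.95). Pde10a was most like Tshz3 (0.96), Nfia (0.96) and Gm37452 (0.95), and Pde1a most like Coro2b (0.90), Etv1 (0.90) and Edil3 (0.90). No member was among the 3 genes most like another member. Correlations between members still ran from -0.39 (Nr4a3 and Pde1a) to 0.86 (Nr4a1 and Nr4a3), with 0.85 for Pde4d and Pde10a.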

How the data were processed

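Single-cell RNA was measured in 4 libraries with 10x Genomics 3′ v3.1 chemistry. The deposited values are raw UMI counts per gene and barcode, with no normalization, per the file headers. STAR 2.7.10b and GRCm39 are named in the submitters' processing notes. UMI collapsing, cell calling, annotation and the use of intronic reads are not given in the sources used here.

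Cells were kept with at least 1000 UMIs, 500 genes and at most 10% mitochondrial UMIs. Scrublet removed 63, 297, 59 and 806 cells of fiSC, ASC, myoblast and MPC as doublets, by its automatic threshold in ASC and by the expected 0.8% per 1000 cells where that threshold marked under 0.5%. Retained UMIs numbered 19989005, 179151700, 54734680 and 135775463. Each library was clustered by itself (scanpy 1.11.5, igraph 0.11.9) on 2000 variable genes without the members, the pathway lists and mitochondrial genes, with 30 components, 15 neighbours and Leiden resolution 0.5. Clusters of at least 50 cells were named from summed marker CPM: macrophage-like from 10000, fibroblast-like from 2500 if above the progenitor sum, muscle differentiation-like from 5000, otherwise progenitor-like. At least 3 markers at 20 CPM were needed, and a cluster stayed unnamed when markers of another class led its 10 top genes or when it had few UMIs for its library and no leading marker of its own. These thresholds were set after the data were seen.

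UMIs were summed over cells and scaled to CPM. Log2 ratios carry a pseudocount of 5 CPM, and folds with intervals are ratios of the sums without it. No test was run, since each group was 1 library. The computation was tested on simulated data. Alternatives used edgeR 4.0.16 TMM factors, pseudocounts of 1 and 10 CPM, other filters, doublets kept and other resolutions. All 10 members are named. Of each pathway list, up to 3 genes per direction with the largest ratio in MPC against myoblasts that meet the size rule at 50 CPM or more are named with levels, and for each member with at least 50 CPM in a library (all but Rgs2) the 3 most like genes. The members and lists were chosen with earlier results of these data known. The reference used (GENCODE M21, RefSeq GRCm38.p6) is of another build than GRCm39, so it gave only gene spans (99.9% of measured genes matched), promoters and exons.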

Additional observations from a re-analysis of the deposited data

How the results depend on the processing

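Of 30 calls on members over the 4 comparisons, 26 were kept under all 10 alternatives chosen at the start. None of the 30 calls was reversed in direction. The count of members higher in ASC than in fiSC was 1 (Nr4a2) and became 0 with a pseudocount of 10 CPM, with 50 CPM or more needed for a call, in progenitor-like cells only, and with fiSC limited to clusters low in immediate early genes, an alternative chosen after seeing the data. Rgs2 lost its calls in MPC against myoblasts and in myoblasts against fiSC when 50 CPM was needed, and the former also under the stricter cell filter. Crem lost its call in ASC against fiSC when each cell had equal weight (log2 ratio -0.94). Nr4a2 became lower in MPC than in fiSC with a pseudocount of 1 CPM (-1.20) and in progenitor-like cells (-1.09). Rgs2, not called over all cells, became lower than in fiSC in the progenitor-like cells of ASC and MPC. Its log2 ratio went from 0.28 to -1.67 in ASC and from -0.87 to -1.10 in MPC. TMM scaling moved the median log2 ratio of all genes by 0.25 in ASC against fiSC and by -0.12 in MPC against fiSC. Of 40 shares of cells with a UMI, 40 moved without thinning and 37 when cells were thinned to 1000 UMIs. No paired analysis was possible because each group was 1 library. Depth limits Nr4a3 in myoblasts (41 UMIs) and Pde1a in fiSC (96 UMIs). Animals, handling and library are single in every group, so no value says how far another library would differ.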

Other observations

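The receptor side of the pathway was also divided between the libraries. Calcr, the calcitonin receptor gene, stood at 364 CPM in fiSC, at 1.09 in ASC, at 0.236 in MPC and at 0.0548 in myoblasts, which is the level of 3 UMIs. Inside fiSC, Calcr was at 1327 CPM in cluster 1, 458 in cluster 2, 168 in cluster 3 and 107 in cluster 4, the order also seen for Pax7 and Nr4a1. The sum of the immediate early and dissociation genes (65470, 56378, 12984 and 10492 CPM) had this order too, and Crem and Sik1 did not. What links them was not tested. Gem, a CREB target that encodes a small GTPase, reached 569 CPM in fiSC, 16.3 in ASC, 2.80 in myoblasts and 19.9 in MPC. Both genes were chosen after their values were seen, and no test was possible.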
